A study of Homo sapiens with 9 samples.

Results

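Semaphorins and their receptors, the plexins and neuropilins, were examined in MCF10A cells, an immortal but non-tumorigenic line from human breast epithelium, carrying a vector only, human deltaNp63alpha or human deltaNp63beta under doxycycline control. The genes were taken by symbol (SEMA3 to SEMA7, PLXNA to PLXND, NRP1 and NRP2), and the rule matched 31 of the 41857 genes in the files: 20 semaphorins, 9 plexins and 2 neuropilins. DeltaNp63alpha and deltaNp63beta are forms of the transcription factor p63 that lack the N-terminal transactivation domain, have the same DNA-binding domain and end in different C-termini. Each group had 3 replicates, biological ones by the series' design text. Doxycycline was given to all of them, the vector cultures as well, at 500 ng/mL over 24 h, and the labels give the genotype of the line as WT in every group. Poly(A) RNA was sequenced from each culture. The labels do not name the promoter that drives the insert and do not say whether a line is 1 clone or how the replicates were raised, so the p-values measure the spread between these libraries.

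Semaphorins are guidance ligands that share a sema domain. Class 3 members are secreted, classes 4 to 6 span the membrane and SEMA7A is held by a lipid anchor. Most class 3 semaphorins bind a neuropilin, which holds the ligand but has a short cytoplasmic tail, and a plexin of the A or D type that carries the signal inward through a GTPase-activating domain acting on small G proteins. Class 4 semaphorins act mainly through B-type plexins, class 6 through A-type plexins and SEMA7A through PLXNC1 and beta-1 integrins. In epithelia these pairs are known for effects on cell adhesion, migration and branching.

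The values are the authors' normalized estimated counts per gene, and each change is a difference on the log2(value + 1) scale ± its SE from limma, with Benjamini-Hochberg adjusted p over all 15108 genes tested. A gene was called at adjusted p under 0.05. Each library summed to between 22.5 and 23.2 (in units of 1000000) after the authors' normalization, and the sum divided by the step between low values, a guide to depth, was 20.3 to 24.4 in the same unit. TP63, the inserted gene, was at 302.3 ± 38.1 (SD, n = 3) with vector, 6123 ± 1469.6 with deltaNp63alpha and 5257 ± 1312 with deltaNp63beta, and the isoform groups differed by -0.22 ± 0.21 (adjusted p = 0.479). The epithelial markers CDH1, EPCAM, KRT5, KRT14, KRT17, KRT18, KRT8, ITGA6 and DSP were above 100 in every library, and their summed level ran from 95930 to 100540.2 with vector, 155515 to 160290 with deltaNp63alpha and 286361 to 303927 with deltaNp63beta. The endothelial markers CDH5 and CLDN5 and the leukocyte markers PTPRC and CD3E stayed below 10 in every library. Summed over 7 endothelial markers, the level was 215 to 284, 172 to 181 and 133 to 175 in the groups in that order, over 6 neuronal markers 589 to 1282, 748 to 1179 and 522 to 974, over 5 leukocyte markers 1216 to 1364, 891 to 1135 and 1034 to 1161, and over 6 fibroblast markers 1453 to 1496, 522 to 663 and 510.3 to 554. Single markers did not all follow these sums. KRT8 was called lower with deltaNp63alpha while the epithelial sum rose. With deltaNp63beta against vector, the leukocyte markers CD14 and LAPTM5 were called higher and CD68 lower. In that comparison the fibroblast marker COL1A1 was called higher and DCN lower. MAP2 was the only neuronal marker called against vector, lower with deltaNp63alpha and higher with deltaNp63beta. The mean neuronal sum went the other way, at 850 with vector, 968 with deltaNp63alpha and 753 with deltaNp63beta, with overlapping libraries. The part of these marker levels in the results was not tested. In these bulk samples, fewer cells that make an RNA and less of that RNA per cell cannot be told apart.

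Of the 31 genes, 26 passed the filter on low values (3 or more libraries at 10 or higher), and each of the 26 reached 10 in a library of every group. SEMA3D, SEMA3E, SEMA4A, SEMA5B and PLXNA4 did not pass, and the highest value among them was 24.6. SEMA3G passed with 4 libraries at 10 or more. PLXNA4 missed narrowly, above 10 only in vector replicates 1 and 3 (24.0 and 24.6), and SEMA4A missed with 1. With deltaNp63alpha against vector, 5 of the 26 rose and 3 fell, 30.8% of them, where 14.5% of all genes tested were called, 8.13% higher and 6.37% lower. Without any 1 vector or deltaNp63alpha library this count of 8 was 4 or 5. Calls over all genes fell as well in these fits, to between 920 and 1038 higher and 640 and 771 lower. These were out of 14955 to 14986 genes tested, where the full fit called 1229 higher and 963 lower. With deltaNp63beta against vector, 6 rose and 7 fell, 50.0%, where 41.3% of all genes were called, 21.8% higher and 19.5% lower. Between the isoforms, 6 were higher and 5 lower with deltaNp63beta than with deltaNp63alpha, 42.3%, where 32.9% of all genes were called, 17.4% higher and 15.5% lower. The libraries of the groups did not overlap in 12, 13 and 12 of the 26 in these comparisons, where that held for 33.5%, 50.6% and 44.8% of all genes tested. The median change of the 26 was 0.03, -0.05 and -0.08 in these comparisons, and that of all genes tested lay between -0.01 and 0.00. Rises and falls were about equally many among the 26.

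**Figure D1:**
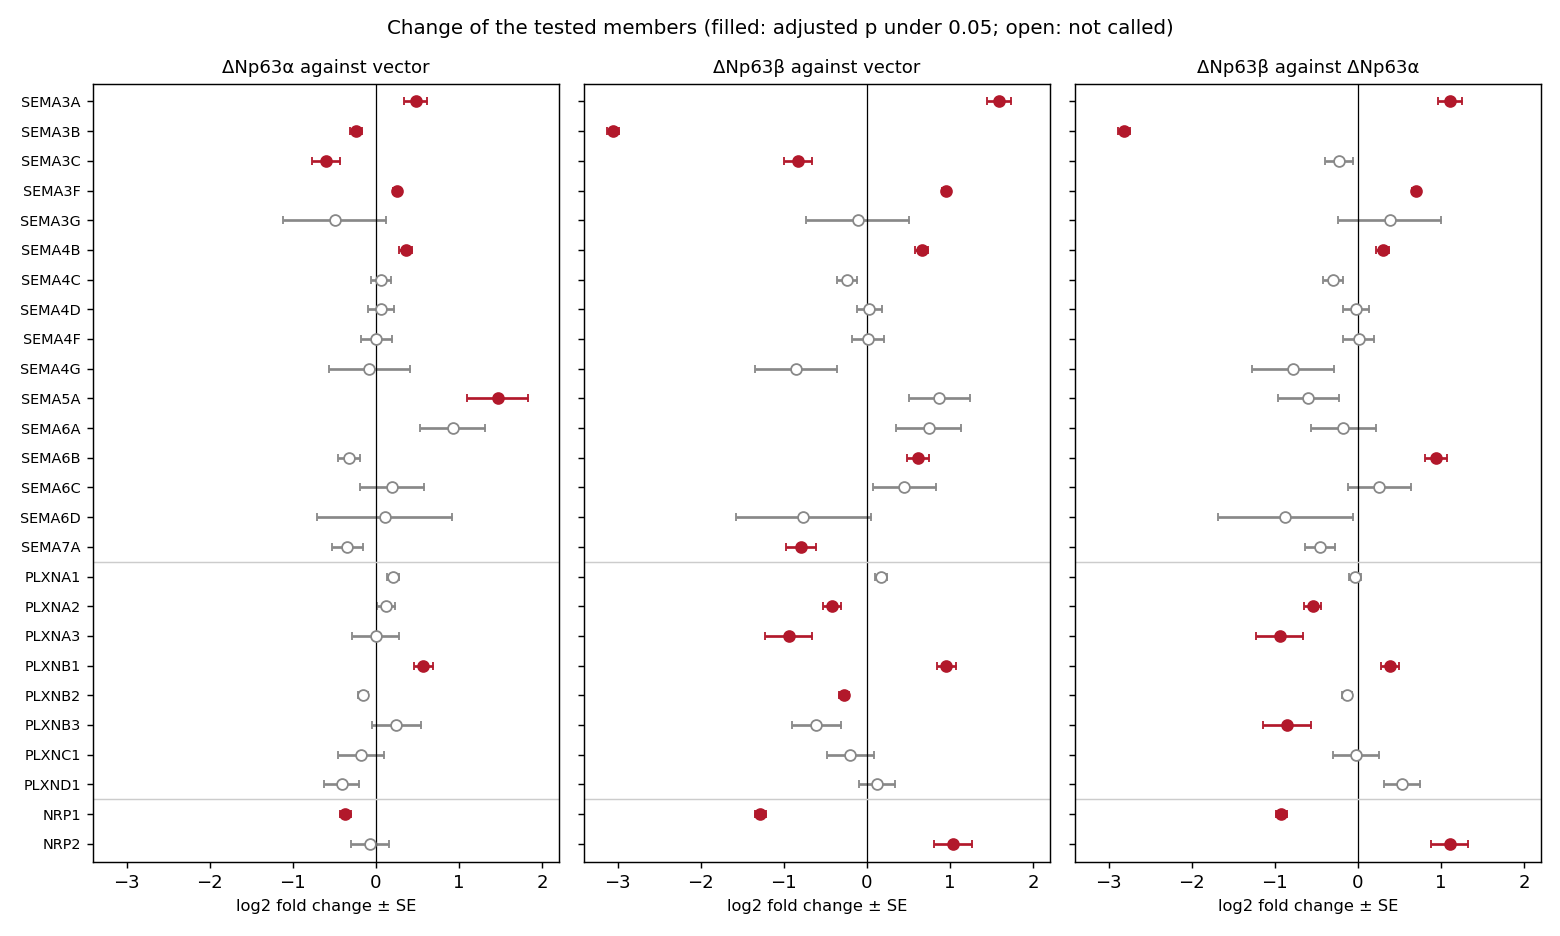
Log2 fold change (x axis, ± SE) of the 26 tested genes (y axis) in each comparison, with filled points for adjusted p under 0.05 and open points for genes not called. SEMA3B lies farthest from 0 with deltaNp63beta, at -3.05 against vector, and NRP1 and NRP2 lie on opposite sides of 0, at -1.28 and 1.04.

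Calls against vector overlapped between the isoforms in 7 genes, SEMA3A, SEMA3B, SEMA3C, SEMA3F, SEMA4B, PLXNB1 and NRP1. Both comparisons use the same vector libraries, so this overlap is not read further, and each gene's own values are given side by side. The direct comparison of the isoforms called 6 of the 7, the exception being SEMA3C. SEMA5A was called with deltaNp63alpha only, and NRP2, SEMA6B, SEMA7A, PLXNA2, PLXNA3 and PLXNB2 with deltaNp63beta only. Among these 7, the isoforms differed by the direct test in NRP2, SEMA6B, PLXNA2 and PLXNA3, and not in SEMA5A, SEMA7A and PLXNB2.

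Levels were compared between genes only per kilobase of each gene's longest coding transcript. Per kilobase, PLXNB2 was the most abundant plexin in every group, at 1013 ± 82.3 with vector, 910.4 ± 41.3 with deltaNp63alpha and 834 ± 36.2 with deltaNp63beta. With vector it was followed by PLXNA2 (501 ± 22.3) and PLXNA1 (446 ± 33.7), whose libraries overlapped, then PLXNB1 (175 ± 15.6) and PLXNA3 (78.6 ± 19.7). PLXNB3, PLXND1 and PLXNC1 were lower, at 44.4 ± 8.54, 39.1 ± 5.87 and 8.88 ± 2.90, and PLXNB3 and PLXND1 did not differ beyond their spread. Among semaphorins with vector, SEMA3B (602 ± 26.2 per kb) and SEMA3F (566 ± 19.8) led with overlapping libraries, ahead of SEMA4B (401 ± 41.1) and SEMA3C (391 ± 30.4), which did not differ beyond their spread. With all exons joined as the length, SEMA3F ranked 1 and SEMA3B 3 among the semaphorins with vector, so the order of these neighbours depends on the length used.

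**Figure D2:**
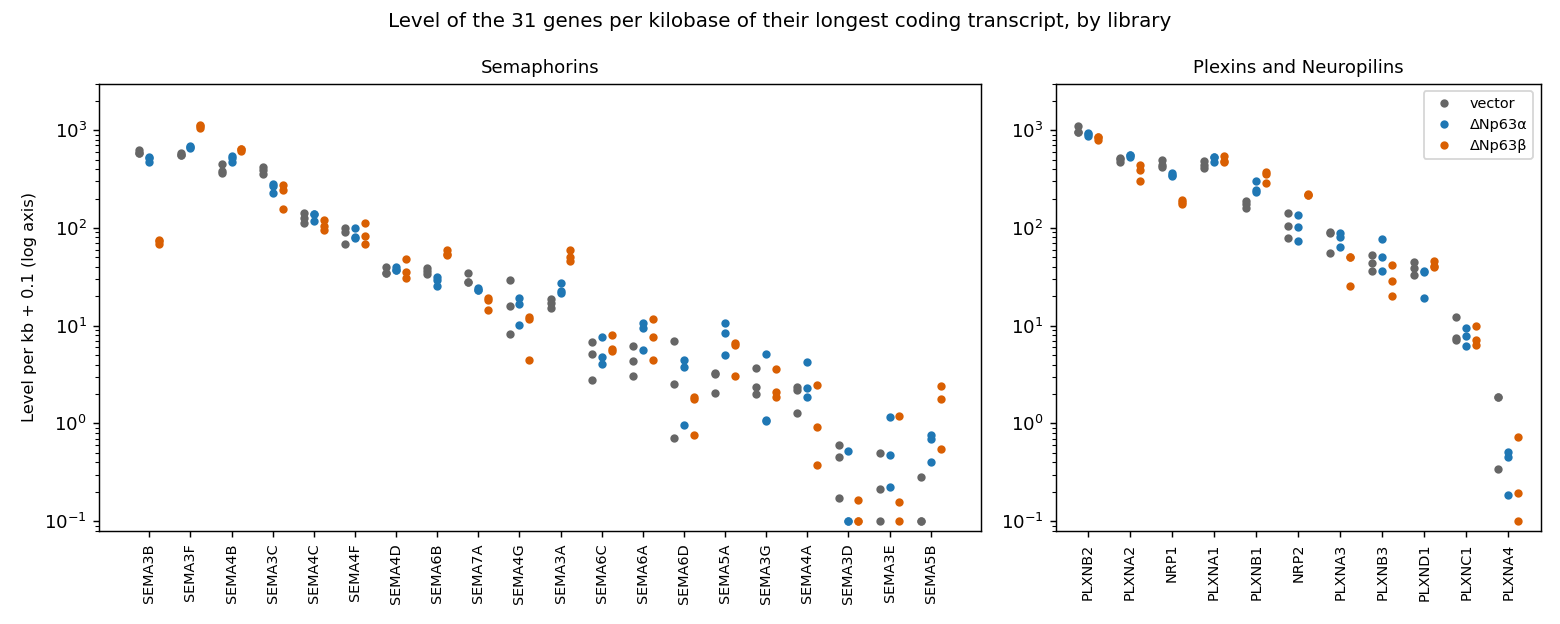
Level per kilobase of the longest coding transcript plus 0.1 (y axis, log) of each of the 31 genes (x axis, ordered by the vector mean) in each of the 9 libraries, 1 point per library. The deltaNp63beta libraries of SEMA3B sit apart below the others, at a mean of 72.1 per kb against 602 with vector.

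The class 3 ligands SEMA3B and SEMA3F moved in opposite directions. Both are secreted, both were found in a region of chromosome 3 that is often lost in lung cancer, and both can bind NRP2. SEMA3B (ENSG00000012171, GRCh38 chr3:50267558-50277546, plus strand) was at 1745, 1869 and 1727 in the vector libraries, 1412, 1589 and 1524 with deltaNp63alpha and 204, 216 and 220.1 with deltaNp63beta. The 3 groups did not overlap, and every deltaNp63beta library lay far below every other library. SEMA3B fell by 3.05 ± 0.07 on the log2 scale with deltaNp63beta (adjusted p = 1.11e-10), an 8.34-fold drop of the mean. With deltaNp63alpha the change was -0.24 ± 0.07 (adjusted p = 0.04), and this call was lost without vector replicate 1, 2 or 3 or deltaNp63alpha replicate 1 or 3 (adjusted p between 0.0744 and 0.147). DeltaNp63beta and deltaNp63alpha differed by -2.81 ± 0.07 (adjusted p = 8.97e-10).

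SEMA3F (ENSG00000001617, GRCh38 chr3:50155045-50189075, plus strand) ends 78.5 kb before SEMA3B begins and is read from the same strand. Its values were 2239, 2100.3 and 2119 with vector, 2619, 2579 and 2515 with deltaNp63alpha and 3974, 4205 and 4339 with deltaNp63beta. Again the groups did not overlap, here in rising order from vector over deltaNp63alpha to deltaNp63beta. The change was 0.26 ± 0.05 with deltaNp63alpha (adjusted p = 0.00422), 0.95 ± 0.05 with deltaNp63beta (adjusted p = 5.11e-08) and 0.70 ± 0.05 between the isoforms (adjusted p = 1.35e-06). Per kilobase, SEMA3B over SEMA3F gave a ratio of 1.06 ± 0.07 in the vector libraries, 0.75 ± 0.05 in those of deltaNp63alpha and 0.07 in those of deltaNp63beta. With all exons joined as the length the ratio was 0.69 ± 0.05, 0.49 ± 0.04 and 0.04, so which of the pair was higher with vector turned with the length, while the order of the groups did not. The exons of SEMA3F overlap those of the antisense gene SEMA3F-AS1 and those of SEMA3B the microRNA gene MIR6872, neither of which has a value in the files.

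The bases before the start sites of this pair are shown because the neighbours moved apart. They are RefSeq sequences (GRCh38.p14, plus strand, 5′ to 3′), for SEMA3B chr3:50272869-50273118 and for SEMA3F chr3:50154808-50155044, the latter cut where its first annotated exon begins. The SEMA3B stretch lies inside the annotated gene, in introns of its longer transcripts and before a later start site, so these are unlike windows and their letters are described separately. Capitals mark a match to the p53-family half-site consensus, the decamer that p63 and p53 bind in pairs.
SEMA3B: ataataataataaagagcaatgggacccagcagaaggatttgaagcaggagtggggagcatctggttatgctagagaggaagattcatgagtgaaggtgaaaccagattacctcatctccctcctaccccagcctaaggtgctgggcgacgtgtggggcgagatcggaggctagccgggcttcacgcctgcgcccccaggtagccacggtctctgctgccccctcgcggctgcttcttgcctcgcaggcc
SEMA3F: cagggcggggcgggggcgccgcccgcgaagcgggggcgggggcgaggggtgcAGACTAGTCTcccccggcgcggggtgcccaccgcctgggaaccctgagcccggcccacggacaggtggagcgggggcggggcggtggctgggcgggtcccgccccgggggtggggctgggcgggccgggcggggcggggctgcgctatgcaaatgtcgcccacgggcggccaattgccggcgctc
The match in SEMA3F, AGACTAGTCT at positions 50154860 to 50154869 of chromosome 3, begins 198 bases before the RefSeq start site and reads the same on both strands. On either strand, 5.57% of the 35116 promoters in the table hold such a half-site in the 250 bases before the start, and 2 of the 27 members with an entry did, SEMA3F and SEMA5B. The SEMA3F stretch is 81.9% G and C and holds the GC box GGGCGG 12 times over both strands. The SEMA3B stretch is 57.6% G and C and holds none. A GC box was present before 18 of the 27 members (66.7%) and before 42.6% of all start sites, and TGANTCA, the AP-1 motif, before 6.57% of all and before 1 of the 27 members, PLXNC1. The members are protein-coding with 1 entry used for each, and the full set was not matched for gene type or expression. These shares are therefore over unlike sets. Some windows also lie away from the annotated gene start: that of PLXNA1 ends at 126983114 and its gene begins at 126988594. These matches describe letters in 1 window per gene, and neither binding nor an effect was measured here.

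SEMA3A and SEMA3C, whose genes lie on chromosome 7, moved in opposite directions as well. SEMA3A, the founding repulsive ligand of NRP1, was at 125, 141 and 154 with vector, 226, 185 and 176 with deltaNp63alpha and 378, 485 and 409.7 with deltaNp63beta. No 2 groups overlapped, and deltaNp63beta libraries stood highest. SEMA3A rose by 1.59 ± 0.14 with deltaNp63beta (adjusted p = 5.32e-06) and was 1.11 ± 0.14 higher than with deltaNp63alpha (adjusted p = 0.000143). The rise with deltaNp63alpha, 0.48 ± 0.14 (adjusted p = 0.0442), was lost without vector replicate 1, 2 or 3, deltaNp63alpha replicate 1, 2 or 3 or deltaNp63beta replicate 3 (adjusted p between 0.0514 and 0.146).

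SEMA3C, which signals through both neuropilins and PLXND1, was at 2030.2, 1864 and 2178 with vector, 1191, 1442 and 1376 with deltaNp63alpha and 813, 1409 and 1279 with deltaNp63beta. Every library with an isoform lay below every vector library, and the isoform groups overlapped. SEMA3C fell by 0.60 ± 0.17 with deltaNp63alpha (adjusted p = 0.0361) and by 0.83 ± 0.17 with deltaNp63beta (adjusted p = 0.00233). The first of these was lost on leaving out any 1 vector or deltaNp63alpha library (adjusted p between 0.061 and 0.116). The isoforms differed by -0.23 ± 0.17, with a 95% interval from -0.60 to 0.14 (adjusted p = 0.329). SEMA3G, also a class 3 ligand, stayed between 4.70 and 24.4 in the 9 libraries and was not called. SEMA3D did not exceed 3.12, and SEMA3E, the ligand that binds PLXND1 without a neuropilin, did not exceed 7.84.

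The neuropilins, co-receptors of the class 3 ligands and of VEGF, exchanged their order with deltaNp63beta. NRP1 (ENSG00000099250, GRCh38 chr10:33177492-33336262, minus strand), the receptor of SEMA3A and VEGF-A, was at 2485, 2568 and 2895 with vector, 2125, 2005 and 2028 with deltaNp63alpha and 1026, 1085 and 1149 with deltaNp63beta. The 3 groups did not overlap and fell in that order. The change was -0.37 ± 0.07 with deltaNp63alpha (adjusted p = 0.00361), -1.28 ± 0.07 with deltaNp63beta (adjusted p = 6.48e-08) and -0.92 ± 0.07 between the isoforms (adjusted p = 1.99e-06).

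NRP2 (ENSG00000118257, GRCh38 chr2:205681990-205798133, plus strand), the receptor of SEMA3F and VEGF-C, was at 691, 944 and 531 with vector, 675, 492 and 909.5 with deltaNp63alpha and 1432, 1436 and 1465 with deltaNp63beta. Vector and deltaNp63alpha libraries overlapped and varied widely, and every deltaNp63beta library lay above them all. The change was 1.04 ± 0.23 with deltaNp63beta (adjusted p = 0.00437) and -0.07 ± 0.23 with deltaNp63alpha (95% interval from -0.57 to 0.44, adjusted p = 0.897). DeltaNp63beta exceeded deltaNp63alpha by 1.11 ± 0.23 (adjusted p = 0.00414). Per kilobase, NRP1 made up 80.6% ± 5.29 of the neuropilin level with vector, 77.3% ± 5.32 with deltaNp63alpha and 46.0% ± 1.13 with deltaNp63beta. Antisense genes overlap exons of both neuropilins, AL121748.2 of NRP1 and AC007362.1 of NRP2, and neither has a value in the files.

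With deltaNp63beta against vector, NRP2 rose. Of the ligands that can bind it, SEMA3F rose and SEMA3B and SEMA3C fell, and the class 3 ligand SEMA3G was not called. PLXNA3, the plexin partner for SEMA3F, fell by 0.94 ± 0.28, a call lost without vector replicate 1 or 2. Among the other A-type plexins tested, PLXNA2 fell and PLXNA1 was not called. SEMA3A rose and its receptor NRP1 fell. The class 3 genes summed per kilobase to 1579 ± 12.2 (vector), 1471 ± 46.8 (deltaNp63alpha) and 1449.6 ± 111 (deltaNp63beta). With all exons joined the sums were 1096 ± 17.3, 1031 ± 29.4 and 1136 ± 89.4, so the deltaNp63beta group passed from lowest to highest and the sum gave no direction. SEMA3F was 35.9% ± 1.05 of that sum with vector, 46.0% ± 2.02 with deltaNp63alpha and 75.9% ± 3.04 with deltaNp63beta. SEMA3B made up 38.1% ± 1.94, 34.6% ± 1.01 and 4.99% ± 0.21 of it. With all exons joined, SEMA3F made up 40.7%, 51.7% and 76.3% and SEMA3B 28.2%, 25.3% and 3.26%, so the larger share with vector was that of SEMA3F. The summed neuropilin level went from 559 ± 28.4 per kb with vector to 453 ± 34.3 with deltaNp63alpha and 402 ± 13.0 with deltaNp63beta. These shares and sums were formed after the values were seen and were not tested.

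**Figure D3:**
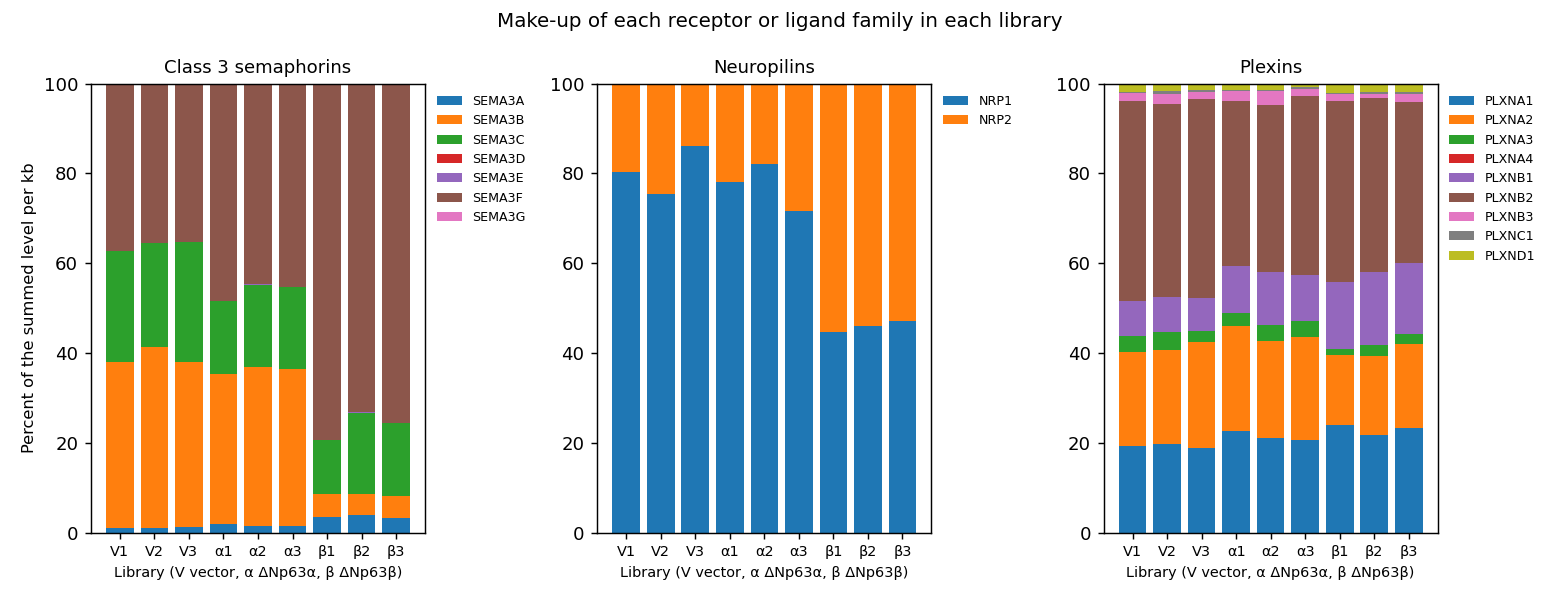
Share (y axis, percent) of each gene in the summed level per kilobase of longest coding transcript of the class 3 semaphorins, neuropilins and plexins in each of the 9 libraries (x axis). SEMA3F takes 73.1% to 79.1% of the class 3 level in the deltaNp63beta libraries, and NRP1 falls from 75.5% to 86.1% of the neuropilin level with vector to 44.8% to 47.0% with deltaNp63beta.

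Among A-type plexins, which signal for class 3 and class 6 ligands, PLXNA2 and PLXNA3 fell with deltaNp63beta, 2 of the 3 tested, where 19.5% of all genes tested were lower. The call of PLXNA3 was lost without vector replicate 1 or 2, as given with its values. PLXNA1 was not called in any comparison, at 4041 ± 306 with vector, 4654 ± 304 with deltaNp63alpha and 4552 ± 380 with deltaNp63beta. PLXNA2 was at 5919, 5443 and 5843 with vector, 6345, 6346 and 6032 with deltaNp63alpha and 3477, 4466 and 5053 with deltaNp63beta. Its deltaNp63beta libraries were the lowest and were spread widely. PLXNA2 fell by 0.42 ± 0.11 with deltaNp63beta (adjusted p = 0.00798), was at 0.12 ± 0.11 with deltaNp63alpha (adjusted p = 0.515) and differed by -0.54 ± 0.11 between the isoforms (adjusted p = 0.00245).

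PLXNA3, the plexin that pairs with NRP2 for SEMA3F, was at 966, 993 and 609 with vector, 694, 959 and 876 with deltaNp63alpha and 275, 548 and 548 with deltaNp63beta. The deltaNp63beta libraries were below all others, with vector replicate 3 nearest to them. PLXNA3 fell by 0.94 ± 0.28 against vector (adjusted p = 0.023) and was lower by -0.94 ± 0.28 than with deltaNp63alpha (adjusted p = 0.0288). Neither call was stable: the first was lost without vector replicate 1 or 2 (adjusted p = 0.0784 and 0.0799) and the other without deltaNp63alpha replicate 2 or 3 (adjusted p between 0.0802 and 0.0889). LAGE3, which overlaps an exon of PLXNA3 on the opposite strand, was between 364 and 505 in the 9 libraries. PLXNA4 was at 24.0, 3.33 and 24.6 with vector and at most 8.51 elsewhere. PLXND1, the SEMA3E and SEMA3C receptor, was at 277 ± 41.6, 214 ± 67.0 and 299.7 ± 25.0 in the 3 groups and was not called.

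Class 4 ligands and B-type plexins showed 1 change each that ran through both isoforms. SEMA4B, a transmembrane ligand, was at 1702, 1469.7 and 1404 with vector, 2073, 1971 and 1814 with deltaNp63alpha and 2309.6, 2421 and 2472 with deltaNp63beta. The groups did not overlap and rose in that order. SEMA4B rose by 0.36 ± 0.08 with deltaNp63alpha (adjusted p = 0.00839) and by 0.66 ± 0.08 with deltaNp63beta (adjusted p = 3.88e-05), and the isoforms differed by 0.30 ± 0.08 (adjusted p = 0.0106). SEMA4C, a PLXNB2 ligand, SEMA4D, the PLXNB1 ligand, SEMA4F and SEMA4G were not called in any comparison. SEMA4D was at 207 ± 16.5, 215 ± 8.45 and 215 ± 50.1, and its 95% interval for deltaNp63beta against vector ran from -0.31 to 0.37. SEMA4G was at 17.7 to 119 over the 9 libraries and overlaps MRPL43 on the opposite strand, which was between 1060.4 and 1311. SEMA4A did not exceed 13.6.

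PLXNB1 (ENSG00000164050, GRCh38 chr3:48403854-48430051, minus strand), a receptor that can associate with the tyrosine kinases MET and ERBB2, was at 1393, 1278 and 1165 with vector, 1804, 2197 and 1717 with deltaNp63alpha and 2131, 2631 and 2713 with deltaNp63beta. Every library with an isoform lay above every vector library, and the isoform groups overlapped. PLXNB1 rose by 0.57 ± 0.11 with deltaNp63alpha (adjusted p = 0.00537) and by 0.96 ± 0.11 with deltaNp63beta (adjusted p = 4.24e-05). The difference of the isoforms, 0.39 ± 0.11 (adjusted p = 0.0205), was lost without deltaNp63alpha replicate 1 or 3 or deltaNp63beta replicate 2 or 3 (adjusted p between 0.0681 and 0.0821).

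PLXNB2, the receptor of SEMA4C, was at 7070.5, 6178 and 6143 with vector, 5527, 6048 and 5858 with deltaNp63alpha and 5060.1, 5498 and 5406 with deltaNp63beta. The groups did not overlap, with vector highest and deltaNp63beta lowest. PLXNB2 fell by 0.28 ± 0.06 with deltaNp63beta (adjusted p = 0.00334), and the values with deltaNp63alpha lay between, at -0.15 ± 0.06 (adjusted p = 0.128). Per kilobase, PLXNB2 over PLXNB1 gave a ratio of 5.79 ± 0.25 in the vector libraries, 3.52 ± 0.38 in those of deltaNp63alpha and 2.46 ± 0.23 in those of deltaNp63beta, and with all exons joined 6.79 ± 0.29, 4.13 ± 0.44 and 2.89 ± 0.27. PLXNB1 made up 7.58% ± 0.23 of the plexin level with vector and 15.6% ± 0.71 with deltaNp63beta, while the summed plexin level was 2307 ± 156, 2399.9 ± 129 and 2177 ± 199 per kb in the 3 groups.

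PLXNB3, a receptor of SEMA5A, was at 277, 340.1 and 232 with vector, 322, 486 and 232 with deltaNp63alpha and 182, 127 and 264 with deltaNp63beta. All 3 groups overlapped. The isoforms differed by -0.85 ± 0.29 (adjusted p = 0.0459), which was lost without any 1 vector library, deltaNp63alpha replicate 1 or 2 or deltaNp63beta replicate 1 or 2 (adjusted p between 0.0506 and 0.167). SRPK3 overlaps PLXNB3 on the same strand and did not exceed 9.67.

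Of the class 5 to 7 ligands, SEMA5A, SEMA6B and SEMA7A were called. SEMA5A, a membrane ligand with thrombospondin repeats, was at 36.7, 22.8 and 37.1 with vector, 97.1, 124 and 57.7 with deltaNp63alpha and 34.9, 73.6 and 77.2 with deltaNp63beta. The deltaNp63alpha libraries lay above all vector libraries, and 1 deltaNp63beta library lay among the vector values. SEMA5A rose by 1.47 ± 0.37 with deltaNp63alpha (adjusted p = 0.0211), lost without vector replicate 2 or deltaNp63alpha replicate 1 or 2 (adjusted p between 0.0685 and 0.0888). With deltaNp63beta it was at 0.87 ± 0.37 (adjusted p = 0.0805), and without deltaNp63beta replicate 1 it was called (adjusted p = 0.0159). The direct difference of the isoforms was -0.59 ± 0.37 (95% interval from -1.40 to 0.22, adjusted p = 0.246).

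SEMA6B, a transmembrane ligand of PLXNA4, was at 134, 154 and 144 with vector, 116, 127 and 102 with deltaNp63alpha and 214, 211 and 239 with deltaNp63beta. The groups did not overlap, with deltaNp63alpha lowest and deltaNp63beta highest. SEMA6B rose by 0.62 ± 0.13 with deltaNp63beta (adjusted p = 0.0032), was at -0.33 ± 0.13 with deltaNp63alpha (adjusted p = 0.134) and was higher by 0.94 ± 0.13 with deltaNp63beta than with deltaNp63alpha (adjusted p = 0.000279).

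SEMA7A, the lipid-anchored ligand, was at 93.7, 93.8 and 116 with vector, 78.1, 77.2 and 82.2 with deltaNp63alpha and 61.0, 64.6 and 48.3 with deltaNp63beta. The groups did not overlap and fell in that order. SEMA7A fell by 0.79 ± 0.18 with deltaNp63beta (adjusted p = 0.00459), and its difference with deltaNp63alpha, -0.34 ± 0.18, was not called (adjusted p = 0.259). The plexin it binds, PLXNC1, was between 44.3 and 89.8 in the 9 libraries and was not called in any comparison. SEMA6A, SEMA6C and SEMA6D were not called either, with means between 8.36 and 58.5 in the groups, and SEMA5B did not exceed 11.5.

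**Figure D4:**
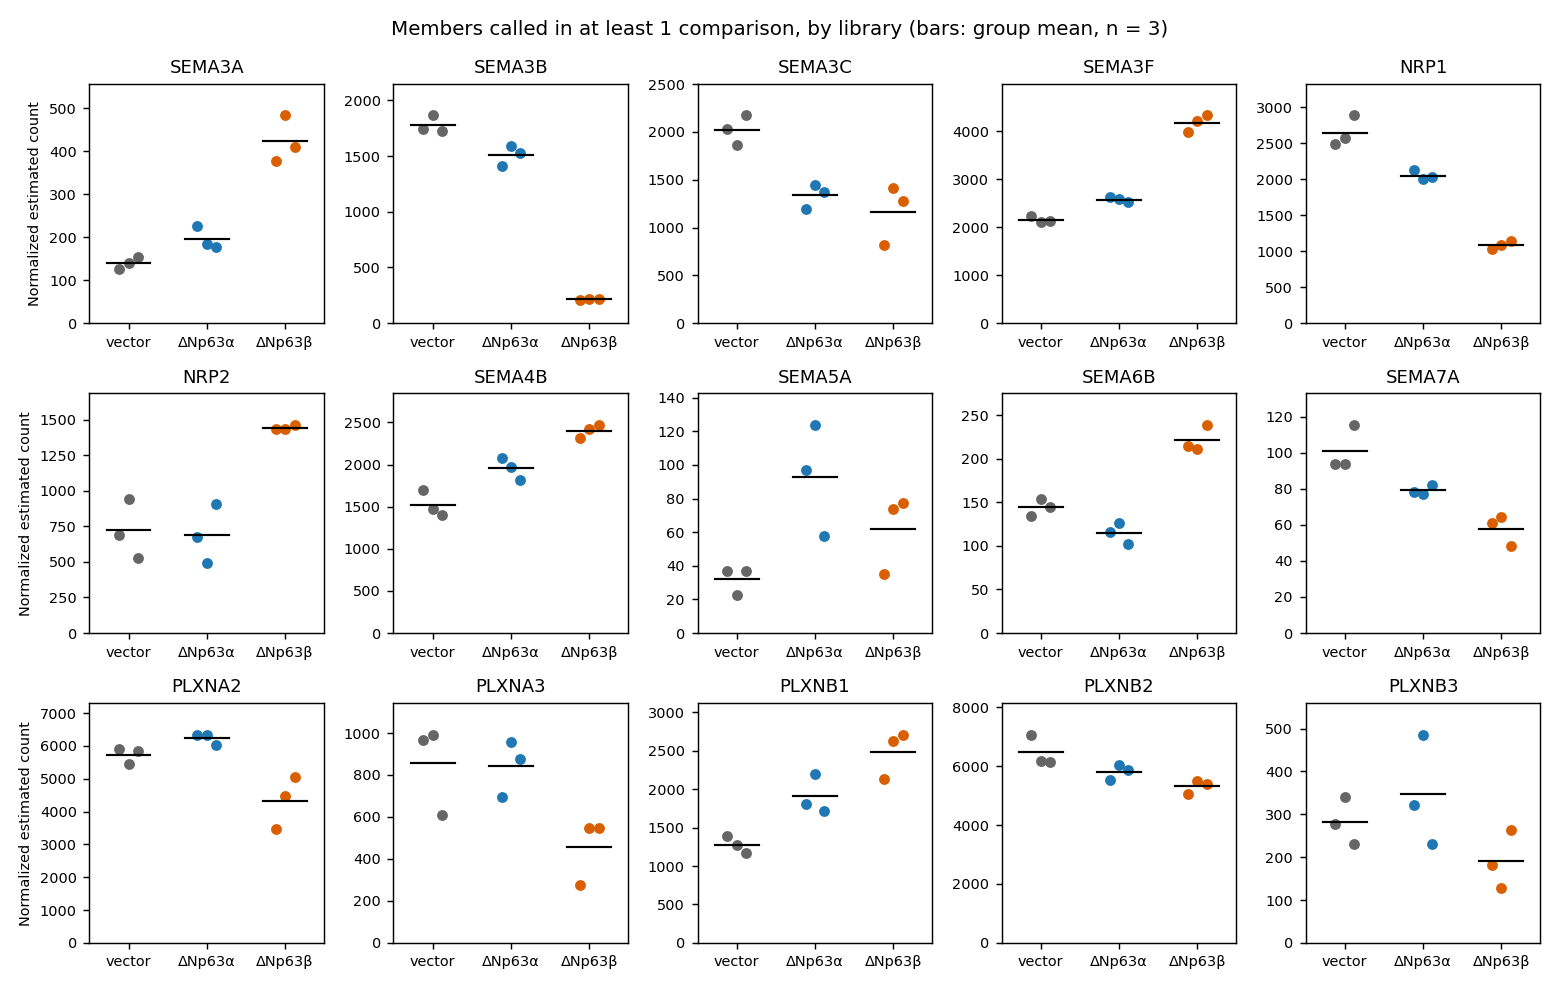
Normalized estimated count (y axis, from 0) of the 15 genes called in at least 1 comparison, with 1 point per library and a bar at the mean of each group of 3. In SEMA3B, SEMA3F, NRP1 and SEMA4B the 3 groups are separate, whereas in PLXNB3 they overlap.

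The other genes of the pathway were taken from 4 lists of co-receptors, VEGF ligands, proteases and intracellular effectors. Of 12 co-receptor genes tested, 4 rose and none fell with deltaNp63alpha, and 4 rose and 1 fell with deltaNp63beta. TREM2 is among the 4 in both counts. It passed the filter on low values only through isoform libraries, so the direction of its calls against vector was fixed in advance. For this and the next lists, 14.5% of all genes tested were called with deltaNp63alpha (8.13% higher, 6.37% lower) and 41.3% with deltaNp63beta (21.8% higher, 19.5% lower), and the share of co-receptors called with deltaNp63beta was near that background. MET, the hepatocyte growth factor receptor that partners PLXNB1, rose from 3392 ± 101 to 4194 ± 169 with deltaNp63alpha (0.31 ± 0.05, adjusted p = 0.00113) and to 4424 ± 166 with deltaNp63beta (0.38 ± 0.05, adjusted p = 6.19e-05). MST1R, a related kinase, rose by 0.57 ± 0.11 and 0.59 ± 0.11, while ERBB2 was not called. ITGA1, a collagen-binding integrin chain that also serves SEMA7A, rose with deltaNp63beta (0.95 ± 0.11) and was 0.76 ± 0.11 higher than with deltaNp63alpha, and the beta-1 chain ITGB1 rose with deltaNp63alpha by 0.15 ± 0.03 and was lower with deltaNp63beta than with deltaNp63alpha (-0.22 ± 0.03). TREM2, known as a partner of PLXNA1 for SEMA6D in bone and immune cells, was at 0.39 with vector, 120.4 ± 11.2 with deltaNp63alpha and 34.9 ± 6.83 with deltaNp63beta, and its adaptor gene TYROBP was listed at 0 in all 9 libraries. KDR, the VEGF receptor that pairs with NRP1, fell from 123 ± 22.4 to 79.4 ± 4.32 with deltaNp63beta (-0.62 ± 0.16, adjusted p = 0.0102).

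The neuropilin ligands of the VEGF family had 1 of 4 genes higher with each isoform and 1 lower with deltaNp63beta, a number too small to set against the 14.5% and 41.3% of all genes called. PGF, placental growth factor, rose from 32.0 ± 10.3 to 108 ± 7.42 with deltaNp63alpha (1.78 ± 0.25, adjusted p = 0.00067) and to 85.1 ± 12.3 with deltaNp63beta (1.43 ± 0.25, adjusted p = 0.000914). VEGFB fell with deltaNp63beta (-0.32 ± 0.10), VEGFA was not called in any comparison, and VEGFC was lower with deltaNp63beta than with deltaNp63alpha (-0.36 ± 0.10). Among 8 processing and shedding proteases, 2 rose with deltaNp63alpha and 3 with deltaNp63beta, and none fell, where 14.5% and 41.3% of all genes were called, so the count with deltaNp63beta was near the background. MMP14, which can release SEMA4D from the membrane, rose from 4024 ± 37.4 to 6606 ± 546 and 6896 ± 353 (0.71 ± 0.06 and 0.78 ± 0.06). PCSK6, a proprotein convertase, rose by 0.97 ± 0.12 with deltaNp63beta, ADAM10 rose by 0.18 ± 0.05 and 0.32 ± 0.05, and FURIN, which cleaves class 3 semaphorins, was not called.

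Of 37 intracellular effectors tested, 10 rose and 1 fell with deltaNp63alpha, where 14.5% of all genes were called. With deltaNp63beta 11 rose and 13 fell, where 41.3% of all genes were called, and between the isoforms 3 were higher and 12 lower with deltaNp63beta, where 17.4% and 15.5% of all genes were. DPYSL2, which encodes the SEMA3A effector CRMP2, fell from 2409.9 ± 76.1 to 1637 ± 84.4 and 1665 ± 151. RRAS2, a small GTPase of the R-Ras group that plexins act on, rose by 0.37 ± 0.05 and 0.39 ± 0.05. MICAL2, an actin-oxidizing enzyme, rose with deltaNp63alpha by 0.46 ± 0.06 and was at 0.00 ± 0.06 with deltaNp63beta, and the isoforms differed by -0.45 ± 0.06 (adjusted p = 0.000219). LIMK2, a kinase of cofilin, rose by 0.39 ± 0.08 and 0.99 ± 0.08, while LIMK1, from the same list, was called lower with deltaNp63beta against vector. RND3 rose by 0.92 ± 0.08 with deltaNp63beta, and filamin A (FLNA) fell by 0.44 ± 0.05 with deltaNp63beta.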

How the data were processed

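Poly(A) RNA was measured in 9 libraries, 3 per group. The deposited signal values are, per the labels and the submitters' processing notes, estimated counts after normalization, which the authors obtained with kallisto 0.46.2 and DESeq2 on GRCh38. The notes do not say which step gave the numbers, and the annotation release and strand setting are not given in the sources used here. Between 59.9% and 63.5% of a library's values up to 20 steps were whole multiples of its lowest step within 0.1 step, so whole reads were not recovered and no count model was used. Symbols were matched by Ensembl gene ID (36387 of 41857 genes), positions and transcript lengths came from GENCODE release 29, and promoters from RefSeq, with entries for 27 of the 31 genes.

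A linear model (limma 3.58.1, R 4.3.3, trended and robust) was fitted to log2(value + 1) for genes at 10 or higher in 3 or more libraries. The 9 libraries shared 1 fit of the 3 group means, without a block. The pseudocount shrinks changes of low genes. The fit was tested on simulated data. The 95% intervals use the moderated spread.  No pairing by replicate number was seen. Same-numbered libraries of different groups had residual correlations from -0.12 to 0.08, and differently numbered ones from -0.14 to 0.12.

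The genes, lists and tests were chosen with earlier results of these data known. Genes called in at least 1 comparison are given by library and the others by range. From the pathway lists, a few genes that were not called, and LIMK1, which was, were named after their values were seen. Otherwise up to 4 genes per pathway list and comparison are given by smallest adjusted p. A gene that this rule picks is not reported here. Alternatives were 3 scalings, 2 filters, 2 pseudocounts, a fit of only 2 groups, the replicate number as a block, limma's test against a 1.5-fold change, no trend, and leaving out each library. The length of all exons joined, tried for levels, shares and ratios per kilobase, was added after seeing the data. Python 3.11.15, pandas 2.3.3, numpy 2.4.6, scipy 1.17.1 and matplotlib 3.10.9 were used.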

Additional observations from a re-analysis of the deposited data

How the results depend on the processing

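None of the 32 called values of the 15 genes changed sign under any of the 20 alternatives, and 24 of them stayed called under all but the test against a 1.5-fold change. The filters, the 2-group fit, the block, the 1.5-fold test and the fit without trend leave each difference itself unchanged. So does leaving out a library of the group not compared. In those settings the sign could not change. The count of genes called with deltaNp63alpha against vector was 8. It was 5 with no filter on low values, 4 without trend and robust moderation, and between 4 and 8 on leaving out 1 library, with 4 without vector replicate 2 or deltaNp63alpha replicate 1 and 5 without any 1 of the other vector or deltaNp63alpha libraries. Over all genes, 1066 were higher and 805 lower with no filter, of 25942 tested. Without trend and robust moderation these were 961 and 706 of 15108. Leaving out 1 library gave 12 to 15 with deltaNp63beta against vector (13 in the full fit) and 9 to 11 between the isoforms (11 in the full fit). In limma's test against a 1.5-fold change, 0 genes were called with deltaNp63alpha, with 1 at an unadjusted p under 0.05. That test called 4 with deltaNp63beta, SEMA3A, SEMA3B, SEMA3F and NRP1, and 2 between the isoforms, SEMA3B and NRP1. Over all 15108 genes it called 134 higher and 47 lower with deltaNp63alpha, 516 and 387 with deltaNp63beta, and 231 and 187 between the isoforms. With the replicate block the counts were 7, 13 and 10, with SEMA3A with deltaNp63alpha and PLXNB3 between the isoforms no longer called. Quantile normalization and pseudocounts of 0.1 and 5 left the counts at 8, 13 and 11. Median-of-ratios factors did so too. They gave the same numbers of calls over all genes (1229 higher and 963 lower with deltaNp63alpha), so this setting repeats the full fit. Equal totals gave 7, 13 and 11, and a fit of only the 2 groups compared gave 7, 13 and 10. In both, SEMA3A with deltaNp63alpha was no longer called (adjusted p = 0.0501 and 0.0637). The filter at 5 or higher in 3 libraries gave 8, 13 and 10. With all exons joined as the length, PLXNB2 made up 45.5% in place of 43.9% of the plexin level with vector, and the class 3 sums, shares and ratios moved as given with them. Low levels limit precision: changes of SEMA3G, SEMA4G, SEMA6A, SEMA6C and SEMA6D have SEs of 0.38 to 0.81.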

Other observations

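The class 3 semaphorin genes of chromosome 7 did not move as a group. SEMA3E ends 307 kb before SEMA3A begins, and SEMA3D begins 503 kb after SEMA3A ends. SEMA3A rose with deltaNp63beta to 424 ± 54.7 from 140.1 ± 14.5 with vector, while SEMA3E and SEMA3D did not exceed 7.84 and 3.12 in any library. SEMA3C, 2441 kb before SEMA3E, fell. On chromosome 3, which holds 7 of the 31 genes, PLXNB1 and SEMA3F rose, SEMA3B fell, PLXNA1, PLXND1 and SEMA3G were not called and SEMA5B was not tested.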
